A study of Mus musculus with 29 samples.

Results

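Nr1h3, Rxra, Id3, Spic, Zeb2, Maf, Spi1, Cebpa and Cebpb encode transcription factors known to direct the formation and identity of monocytes and tissue macrophages. They were chosen by symbol, and all 9 of 9 symbols were found among the 23930 genes of the deposited table of RPM, the share of a library's reads that fell on a gene, on a common scale for all libraries. The study sorted macrophages from the spleen and liver of untreated C57BL/6 wild-type (WT) mice and of Rnaset2-/- mice, which lack both Rnaset2a and Rnaset2b, the genes for the lysosomal RNA-degrading enzyme RNase T2. Male and female mice were used, and ages are not given in the sources used here. The 29 libraries fall into 9 groups. Ly6C-high macrophages were gated as CD11b(+) Ly6G(-) SiglecF(-) NK1.1(-), and Ly6C-low macrophages as CD11b(+) Fcgr4(+) with the same exclusions, per the labels. The study's methods describe both liver subsets of Rnaset2-/- mice with a single gate, that of Ly6C-low cells, so how their Ly6C-high cells of the liver were gated is not certain. Each of these subsets has 3 libraries per organ and genotype, except 4 for Ly6C-low macrophages of Rnaset2-/- spleens. Kupffer cells, the resident macrophages of the liver, were sorted from WT livers only as Tim4(+) cells with F4/80, intermediate CD11b and low PDCA-1, and have 4 libraries. The deletion is not limited to macrophages, and spleen cells, but not liver cells, were described as depleted of lymphocytes, neutrophils and erythroid cells with beads before sorting. Rnaset2a and Rnaset2b were not analysed here, so the genotype labels were not checked against their levels.

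Nr1h3 encodes LXRα, a nuclear receptor that binds oxysterols and acts as a heterodimer with the retinoid X receptor RXRα, the product of Rxra. Kupffer cells depend on LXRα, on ID3, an inhibitor of E-box binding proteins, and on ZEB2, an E-box binding repressor; SpiC, an Ets family factor, is known for splenic red pulp macrophages and iron recycling. c-MAF is a bZIP factor of mature macrophages, PU.1, encoded by Spi1, is the Ets factor required by all of them, and C/EBPα and C/EBPβ are bZIP factors of early myeloid progenitors and of Ly6C-low monocytes, respectively.

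In the GENCODE vM21 annotation of GRCm38, 5 of the 9 genes lie on chromosome 2, and Spi1 and Nr1h3 are near each other. Nr1h3 spans chr2:91184061-91202834 on the minus strand and Spi1 chr2:91082390-91115756 on the plus strand. Rxra is at chr2:27676440-27762957 (plus), Zeb2 at chr2:44983632-45117395 (minus) and Cebpb at chr2:167688915-167690418 (plus). Id3 is at chr4:136143497-136145755 (plus), Cebpa at chr7:35119293-35121928 (plus), Maf at chr8:115682942-115707794 (minus) and Spic at chr10:88674772-88685015 (minus). RefSeq promoters on GRCm38.p6 were matched for 7 of the 9 genes, with 12 start sites in all, and none was matched for Maf and Spi1. The 250 bases before each start were searched on both strands for 5 motifs, namely GAGGAA (the core of PU.1 and SpiC sites), AGGTCA (a nuclear receptor half-site), TTGCNNAA (C/EBP), TGCTGA (a Maf half-site) and CACCTG (the E-box of ZEB factors). The promoters of the 3 genes with the largest rises in Rnaset2-/- Ly6C-low macrophages of the liver are shown here from 5′ to 3′ on the strand of the gene, with matches in capitals and bases of annotated exons left off. All windows shown lie inside the GENCODE spans of their genes, downstream of the outermost annotated start.
Nr1h3, chr2:91195152-91195366, minus strand: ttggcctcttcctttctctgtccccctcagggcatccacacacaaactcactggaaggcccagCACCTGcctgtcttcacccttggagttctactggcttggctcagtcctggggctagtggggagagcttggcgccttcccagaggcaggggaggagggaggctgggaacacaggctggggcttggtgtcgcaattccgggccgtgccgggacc
Rxra, the downstream of its starts, chr2:27709042-27709291, plus strand: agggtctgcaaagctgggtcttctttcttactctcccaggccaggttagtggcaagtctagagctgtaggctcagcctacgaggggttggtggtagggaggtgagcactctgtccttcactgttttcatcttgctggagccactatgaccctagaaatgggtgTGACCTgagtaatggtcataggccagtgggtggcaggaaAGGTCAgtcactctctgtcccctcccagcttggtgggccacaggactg
Spic, chr10:88683024-88683273, minus strand: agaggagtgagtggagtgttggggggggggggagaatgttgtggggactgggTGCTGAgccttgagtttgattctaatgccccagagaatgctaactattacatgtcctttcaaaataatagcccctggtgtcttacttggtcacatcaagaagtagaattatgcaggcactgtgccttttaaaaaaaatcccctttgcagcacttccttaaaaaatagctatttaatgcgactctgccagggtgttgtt
The Nr1h3 window held a CACCTG from base -187 to -182 before the start, a motif that 17.2% of 32841 promoters of this length hold. The Rxra window held AGGTCA from -48 to -43 and, on the opposite strand, from -87 to -82 (14.0% of promoters), and the Spic window held TGCTGA from -198 to -193 (16.1%). The windows of the other Nr1h3 start and of the upstream Rxra start, not shown, held none of the 5 motifs. GAGGAA, held by 23.3% of promoters, was present before each of the 4 Zeb2 starts and in 2 places before Id3. One Zeb2 start also had TTGCNNAA, which 9.57% of promoters hold. None of these 5 sets of letters was in the Cebpa and Cebpb windows.

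Each library held 11175843 to 21167602 reads (median 13027220), so that 3 reads, the floor of detection, were at most 0.268 RPM. The Kupffer cell gate was matched by Clec4f, a lectin made by Kupffer cells, at 1674 to 5470.5 RPM in Kupffer cells against at most 63.3 RPM in any other library. Kupffer cell replicate 3 stood apart, with a summed RPM of 9 Kupffer cell genes of 6970 (others up to 20101) and of 8 hepatocyte genes of 5157 (others from 1489). Among the Ly6C-low libraries of Rnaset2-/- spleens, replicates 1 and 2 had summed RPM of 14 neutrophil genes of 41391 and 23393, against 4605 and 3630 in the other 2 and 1196 to 2576 in WT. In the liver, Xist was at most 0.154 RPM in the 6 Rnaset2-/- Ly6C-high and Ly6C-low libraries and at least 321 RPM in the 6 WT ones, while Ddx3y, a Y-linked gene, was at 83.4 to 156 against at most 29.7 RPM. The sex of the mice therefore moved with genotype in the liver, and the 2 cannot be told apart there. These WT libraries also held Y-linked RNA, since none of 4 Y-linked genes was at 0 in all libraries of either subset. They may thus not come from females alone, which was not tested. In the spleen Xist was at least 353 RPM except in 1 Rnaset2-/- Ly6C-low library (0.781 RPM). In Rnaset2-/- mice sex therefore also moved with organ. In Kupffer cells 5 sex-linked genes (Xist and 4 Y-linked genes) summed to 647 to 949 RPM, with 4 of the 5 at 0 in all libraries. Their sex thus differed from that of the Rnaset2-/- liver libraries. The RPM of 16 dissociation and immediate early genes summed to 27706 to 40122 in the WT Ly6C-high and Ly6C-low libraries of the liver, to 1597 to 8730 in the Rnaset2-/- ones and to 2228 to 3547 in Kupffer cells. These libraries are amplicon panels, so levels are compared between groups within a gene and not between genes. In RNA from sorted populations, fewer cells of a type and less RNA per cell cannot be told apart, and since nothing states that replicates are separate mice, p-values measure the spread between libraries, which may be technical.

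**Figure D1:**
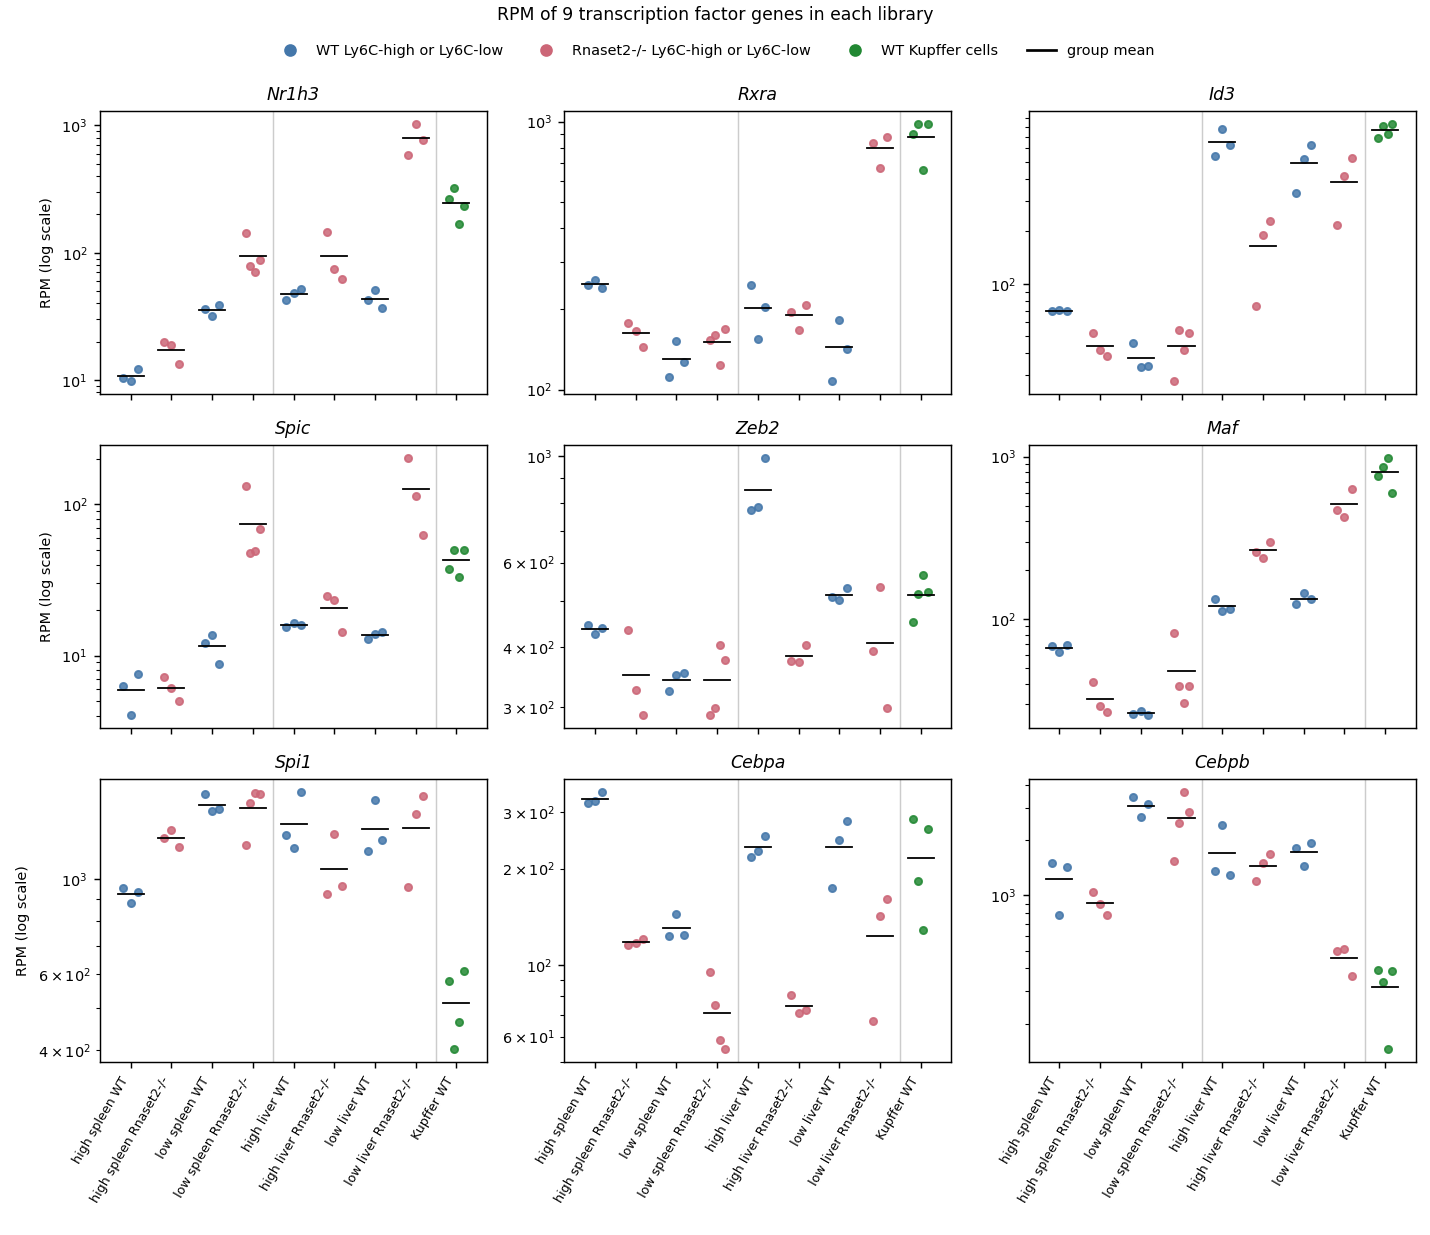
RPM of each of the 9 genes (log axis) in every library, by group, with dots for libraries (blue for WT subsets, pink for Rnaset2-/- subsets and green for Kupffer cells) and a bar for the group mean. Nr1h3 spans 10.8 to 796 RPM between its lowest and highest group means, while Spi1 lies between 514 and 1493.

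Nr1h3 differed most between groups, with a highest group mean 73.4 times the lowest. In Rnaset2-/- Ly6C-low macrophages of the liver it was at 589, 1024 and 773 RPM, against 42.6, 50.6 and 36.5 in their WT counterparts. Kupffer cells had 263, 322, 169 and 234 RPM, between these groups and without overlap with either. In the spleen, Rnaset2-/- Ly6C-low macrophages had 143, 78.9, 70.1 and 88.3 RPM against 36.3, 32.0 and 38.7 in WT. Every Rnaset2-/- library thus exceeded every WT library of the same subset in both organs. Ly6C-high macrophages of the liver had 145, 74.7 and 61.7 RPM in Rnaset2-/- mice and 42.5, 48.6 and 51.9 in WT. The lowest groups were Ly6C-high macrophages of the spleen, at 19.8, 18.8 and 13.4 RPM in Rnaset2-/- mice and 10.5, 9.78 and 12.3 in WT. From the highest mean, the order was Rnaset2-/- liver Ly6C-low (mean 796 ± 218 RPM, SD, n = 3), Kupffer cells (247 ± 63.2, n = 4), Rnaset2-/- spleen Ly6C-low (95 ± 32.6, n = 4), Rnaset2-/- liver Ly6C-high (93.8 ± 44.9, n = 3), the WT liver subsets and WT spleen Ly6C-low (35.7 to 47.7), then Ly6C-high macrophages of Rnaset2-/- spleens (17.3) and WT spleens (10.8). Libraries overlapped in 3 of the 8 neighbouring pairs, which were the 2 Rnaset2-/- groups near 95 RPM and the 3 WT groups from 35.7 to 47.7.

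Rxra, the partner of LXRα, was high in 2 groups only. Kupffer cells had 897, 979.7, 663 and 978 RPM and Rnaset2-/- Ly6C-low macrophages of the liver 836, 671 and 877, so that these groups overlapped. WT Ly6C-low macrophages of the liver had 107, 183 and 142 RPM. The group means of the other 7 groups lay between 129.9 and 247 RPM, each overlapping its neighbours in the order, and all of their libraries were below those of the first 2 groups. Among them, WT Ly6C-high macrophages of the spleen were the highest (245, 257 and 239 RPM) and did not overlap their Rnaset2-/- counterparts (178, 165 and 145).

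Spic was also highest in Rnaset2-/- Ly6C-low macrophages, and in both organs. Liver libraries had 203, 114 and 62.6 RPM in Rnaset2-/- mice against 12.9, 13.9 and 14.3 in WT. Spleen libraries had 132, 48.0, 49.2 and 68.6 RPM in Rnaset2-/- mice against 12.0, 13.7 and 8.78 in WT. The spread among Rnaset2-/- libraries was wide, yet no library overlapped WT. Kupffer cells were at 37.5, 49.8, 33.3 and 50.2 RPM, overlapping the Rnaset2-/- Ly6C-low group of the spleen. On RPM scaled by relative log expression factors over all 29 libraries these groups did not overlap (26.3 to 41.5 against 48.6 to 127). Ly6C-high macrophages of the liver had 24.7, 23.2 and 14.3 RPM in Rnaset2-/- mice and 15.4, 16.4 and 15.9 in WT, which overlapped. The lowest levels were in Ly6C-high macrophages of the spleen, at group means of 6.11 (Rnaset2-/-) and 5.94 RPM (WT).

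Maf separated Kupffer cells and Rnaset2-/- liver macrophages from the others. Kupffer cells had 762, 867, 982 and 601 RPM, and Rnaset2-/- Ly6C-low macrophages of the liver, overlapping them, 469.7, 426 and 632. Rnaset2-/- Ly6C-high macrophages of the liver had 259.6, 238 and 298 RPM, below both and above the WT liver subsets, which were at 132, 111 and 115 (Ly6C-high) and 124, 144 and 133 (Ly6C-low). All spleen libraries were lower than these. WT Ly6C-high macrophages of the spleen had 68.0, 62.4 and 69.5 RPM and their Rnaset2-/- counterparts 41.1, 29 and 26.9. For Ly6C-low macrophages of the spleen the Rnaset2-/- libraries had 82.1, 38.7, 30.4 and 38.6 RPM, the first well above the other 3, and the WT ones 26.1, 27.0 and 25.5. The highest group mean was 30.6 times the lowest.

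Id3 was a gene of the liver groups, whose means of 165 to 764 RPM all exceeded those of the spleen groups (37.6 to 70.1 RPM). Kupffer cells had 691, 808, 729 and 828 RPM, overlapping WT Ly6C-high macrophages of the liver at 539, 777 and 630.4. Rnaset2-/- Ly6C-high macrophages of the liver were the lowest liver group, at 74.8, 192 and 229 RPM, and did not overlap WT. Ly6C-low macrophages of the liver overlapped between genotypes, with 218, 415 and 527 RPM in Rnaset2-/- mice and 331, 521 and 625 in WT. In the spleen, WT Ly6C-high libraries were close together at 69.4, 70.9 and 69.9 RPM, above the Rnaset2-/- ones at 52.1, 41.5 and 38.6.

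Zeb2 varied little, with a highest group mean 2.48 times the lowest. WT Ly6C-high macrophages of the liver stood above all other groups at 771, 782 and 992 RPM. Their Rnaset2-/- counterparts were at 375, 371 and 404 RPM, within the range of the spleen groups, whose means were 342 to 436. Kupffer cells (451, 515, 566 and 522 RPM) overlapped WT Ly6C-low macrophages of the liver (508, 501 and 529.8) on RPM as deposited. On RPM scaled over all 29 libraries these groups did not overlap (360 to 447 against 522 to 584).

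Spi1 was similarly even, with a 2.91-fold range of group means. Between neighbours in the order of means, its only step without overlap was to Kupffer cells. Groups farther apart could separate, such as WT Ly6C-high (881 to 955 RPM) and WT Ly6C-low macrophages of the spleen (1440 to 1582). Kupffer cells had 579, 402, 465 and 611 RPM, below each of the other 25 libraries, and the other 8 group means ran from 922 to 1493 RPM with each overlapping the next. Cebpb had its lowest levels in Kupffer cells as well (392, 338, 145 and 386 RPM), which overlapped Rnaset2-/- Ly6C-low macrophages of the liver (495, 513 and 365). On RPM scaled over all 29 libraries these groups did not overlap (115 to 319 against 411 to 521). WT Ly6C-low macrophages of the liver had 1799, 1446 and 1935 RPM of Cebpb, and those of the spleen 3446, 2661 and 3118, the highest group. Rnaset2-/- Ly6C-low macrophages of the spleen were spread from 1544 to 3649.7 RPM around a mean of 2632 ± 873 (SD, n = 4).

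On RPM as deposited, Cebpa was lower in every Rnaset2-/- library than in every WT library of the same subset and organ. Spleen Ly6C-high macrophages had it at 116, 117 and 121 RPM against 320.0, 324 and 346 in WT, the highest group. Liver Ly6C-high macrophages had it at 81.1, 71.0 and 72.8 against 218, 227 and 253 RPM. The Ly6C-low subsets were closer, with 67.2, 142 and 161 against 174, 245 and 282 RPM in the liver and 95.5, 75.0, 58.7 and 54.8 against 123, 145 and 125 RPM in the spleen. On RPM scaled over all 29 libraries those of the liver overlapped, with 182 in Rnaset2-/- replicate 3 and 179 in WT replicate 1. Kupffer cells had 285, 182, 129 and 265 RPM, overlapping both WT liver subsets. On the scaled RPM they overlapped only the Ly6C-low subset, with 102 to 228 against 179 to 311 (Ly6C-low) and 256 to 310 (Ly6C-high).

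The study asked how the loss of RNase T2 changes macrophages of each subset and organ. For each comparison a gene was counted as changed at a difference over 1.5-fold with an adjusted p under 0.05 in limma, fitted over all tested genes on log2(scaled RPM + 1), where RPM were scaled by relative log expression factors; all log2 differences given are on this scale. In Ly6C-low macrophages of the liver, 6 of the 9 genes passed (42.7% of all 10808 tested genes did), and 4 of them rose in Rnaset2-/- mice. The mean RPM of Nr1h3 was 18.4 times that of WT (log2 difference 4.11, SE 0.23, adjusted p = 1.56e-05). Rxra rose by a log2 difference of 2.44 (SE 0.24, adjusted p = 0.000181), Spic by 2.92 (SE 0.36, adjusted p = 0.000495) and Maf by 1.87 (SE 0.21, adjusted p = 0.00028). Cebpb fell by 1.96 (SE 0.20, adjusted p = 0.000182) and Cebpa by 1.02 (SE 0.35, adjusted p = 0.0428). Cebpa no longer passed with any of 4 libraries left out (adjusted p up to 0.141), in edgeR (0.0519) or without a filter on low values (0.0736). Id3, Zeb2 and Spi1 did not pass, with 95% confidence intervals of their log2 differences from -1.28 to 0.41, from -0.89 to 0.07 and from -0.62 to 0.52. The Rnaset2-/- libraries of this subset also carried more RNA of Kupffer cell genes, of which 6 of 9 rose and 1 fell, with a summed RPM of 6404 to 11757 against 399 to 488, of which Cd5l, a secreted macrophage protein and LXR target, made up 5478 to 9639. Clec4f and Timd4 were at 17.7 to 63.3 and 10 to 66.8 RPM in them, against 4.01 to 15.1 and 0.261 to 0.911 in WT. In the same comparison 7 of 8 tested T cell, 5 of 6 B cell, 5 of 5 erythroid and 3 of 10 sinusoidal endothelial genes were higher (summed RPM of the last 1502 to 4867 against 347 to 604), and all 16 dissociation and immediate early genes fell. The part of these lists in the differences was not tested.

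Among Ly6C-high macrophages of the liver 4 of the 9 genes passed (30.6% of all genes), and 3 of them fell. Cebpa was lower by 3.11-fold in mean RPM (log2 difference -1.94, SE 0.18, adjusted p = 0.000544), Id3 by 3.93-fold (-2.42, SE 0.35, adjusted p = 0.0025) and Zeb2 by 2.21-fold (-1.45, SE 0.20, adjusted p = 0.00199). Maf rose by a log2 difference of 0.82 (SE 0.17, adjusted p = 0.0109). Nr1h3 did not pass (log2 difference 0.55, 95% confidence interval -0.27 to 1.38). Its libraries did not overlap on RPM as deposited but did on scaled RPM, and the difference was 0.13 without Rnaset2-/- replicate 1, the library farthest from the other 2 of its group. Spi1 did not pass either (-0.68, adjusted p = 0.0616). Without the scaling factors the median difference of all genes in this comparison was 0.305 in place of 0.015. Genes of other cells rose in these libraries, namely 9 of 10 sinusoidal endothelial genes (summed RPM 720 to 3826 against 177 to 214 in WT), 8 of 9 T cell genes (229.7 to 449 against 12.6 to 31.4), 8 of 9 B cell, 7 of 9 NK cell and all 5 tested erythroid genes. In the dissociation and immediate early list 15 of 16 genes fell. No gene of these lists except 1 erythroid and 1 T cell gene in WT was at 0 in all libraries of a group, and the part of the lists in the differences was not tested.

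In the spleen, 3 of the 9 genes passed in each subset. In Ly6C-low macrophages (8.35% of all genes passed), Spic rose 6.47-fold in mean RPM (log2 difference 2.49, SE 0.32, adjusted p = 0.00407) and Nr1h3 2.66-fold (1.35, SE 0.21, adjusted p = 0.00971). Cebpa fell by 0.90 (SE 0.17, adjusted p = 0.0183). With the 2 libraries richest in neutrophil genes left out, the same 3 passed, with log2 differences of 2.32 for Spic, 1.19 for Nr1h3 and -1.13 for Cebpa. Cebpa did not pass with any single WT library left out (log2 differences -0.95, -0.82 and -0.92, adjusted p up to 0.0863), nor did Nr1h3 without WT replicate 2 (1.27, adjusted p = 0.0568), which left only Spic. Without that library the number of all genes that passed fell from 860 to 190. The difference of Maf was 0.73 (SE 0.27, adjusted p = 0.116). In this comparison 3 of 14 neutrophil, 3 of 5 tested erythroid and 2 of 3 tested B cell genes rose and 6 of 9 NK cell genes fell, and their part was not tested beyond leaving out those libraries.

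Among Ly6C-high macrophages of the spleen (22.2% of all genes passed), Cebpa fell by 2.8-fold in mean RPM (log2 difference -1.36, SE 0.08, adjusted p = 3.17e-06) and Maf by 2.06-fold (-0.93, SE 0.15, adjusted p = 0.00091), while Nr1h3 rose 1.6-fold (0.73, SE 0.18, adjusted p = 0.00874). The Nr1h3 call was lost in a single fit of all 29 libraries (adjusted p = 0.091). Rxra (-0.49), Id3 (-0.55) and Spi1 (0.55) had adjusted p of 0.0042, 0.0053 and 0.00164 but stayed under 1.5-fold. All 3 tested B cell genes (summed RPM 98.9 to 141 against 591 to 665) and all 3 tested erythroid genes (2.69 to 9.65 against 105 to 109) were lower in these Rnaset2-/- libraries. All 9 T cell, all 8 dendritic cell and 8 of 9 NK cell genes were lower too, with summed RPM of 17.4 to 44.4 against 264 to 294, 94.5 to 97.1 against 302 to 323 and 98.2 to 229 against 816 to 875. Of the neutrophil genes 7 of 14 were higher (34310 to 59624 against 31299 to 33512), and 9 of 16 dissociation and immediate early genes were lower (9251 to 12546 against 18074 to 18192). The part of these lists in the differences was not tested.

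**Figure D2:**
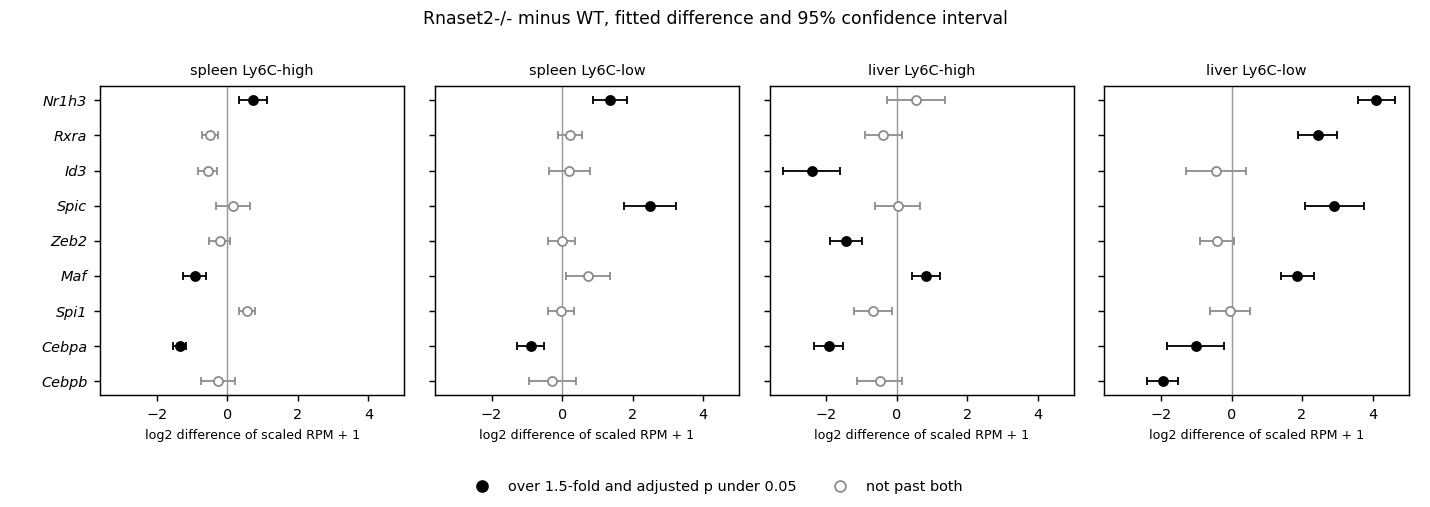
Fitted log2 differences of scaled RPM + 1 between Rnaset2-/- and WT for the 9 genes in each subset and organ, as points with 95% confidence intervals, filled where a gene passed both thresholds. Cebpa lies below 0 in all 4 panels, from -0.90 to -1.94, and the longest rise is Nr1h3 in Ly6C-low macrophages of the liver at 4.11.

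Whether the genotype differences themselves differed between organs was tested as an interaction in each subset. For Ly6C-low macrophages 4 of the 9 genes passed (26.8% of all genes). The Rnaset2-/- minus WT difference was larger in the liver than in the spleen by 2.77 on the log2 scale for Nr1h3 (SE 0.32, adjusted p = 7.61e-05) and by 2.22 for Rxra (SE 0.30, adjusted p = 0.000221), and it was more negative for Cebpb (-1.68, SE 0.38, adjusted p = 0.0063). Maf had an interaction of 1.14 (SE 0.37, adjusted p = 0.0361), a call lost in 13 of 22 other settings. For Spic, which rose in both organs, the interaction was 0.43 with a 95% confidence interval from -0.69 to 1.56. For Ly6C-high macrophages 4 genes passed as well (33.5% of all genes). Maf went in opposite directions in the 2 organs, with an interaction of 1.79 (SE 0.22, adjusted p = 0.000109). Id3 (-1.83, SE 0.39, adjusted p = 0.00379), Zeb2 (-1.20, SE 0.23, adjusted p = 0.00219) and Spi1 (-1.20, SE 0.24, adjusted p = 0.00238) were more negative in the liver. Cebpa had interactions of -0.55 (95% confidence interval -0.95 to -0.14, under 1.5-fold) and, in Ly6C-low macrophages, -0.12 (SE 0.41). Sex moved with genotype in the liver, so these organ differences carry it too.

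LXR target genes, a list of 14 that act in cholesterol export, lipid metabolism and clearance of apoptotic cells, moved in both directions within a comparison. Of all genes, 42.7% and 30.6% passed by genotype in Ly6C-low and Ly6C-high macrophages of the liver, and 8.35% and 22.2% in those of the spleen. The list counts were not tested against these shares. In Ly6C-low macrophages of the liver 7 of the 14 rose and 3 fell in Rnaset2-/- mice (median log2 difference 0.68, against 0.014 over all genes). Cd5l, a secreted protein of macrophages, rose by 6.98 (adjusted p = 2.43e-06), from 54.8 ± 13.8 to 7290 ± 2132 RPM (SD, n = 3). Mertk, a receptor for apoptotic cells, rose by 2.59 (adjusted p = 0.000696) and Pltp, the phospholipid transfer protein, by 2.39 (adjusted p = 0.000945). Apoe, the lipid carrier apolipoprotein E, fell by 0.96 (adjusted p = 0.016), Arl4c by 1.53 (adjusted p = 0.00116) and Smpdl3a by 0.82 (adjusted p = 0.0183). In Ly6C-low macrophages of the spleen 2 rose, Cd5l (2.53, adjusted p = 0.0139) and Pltp (1.05, adjusted p = 0.00956), and 5 fell, among them Scd1, a fatty acid desaturase (-2.19, adjusted p = 0.00368), Apoe (-1.96, adjusted p = 0.00282) and Arl4c (-1.50, adjusted p = 0.0141), with a list median of -0.06.

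For Ly6C-high macrophages of the liver 6 LXR targets rose and 4 fell (median 0.66), with Cd5l at 6.33 (adjusted p = 0.000147), Scd1 at 3.40 (adjusted p = 0.000393) and Mertk at 2.13 (adjusted p = 0.0214), and with Apoe at -1.81 (adjusted p = 0.0043), Arl4c at -1.34 (adjusted p = 0.00365) and Smpdl3a at -1.14 (adjusted p = 0.0398). Cd5l reached 220 ± 111 RPM there (SD, n = 3), far under its Ly6C-low level. In Ly6C-high macrophages of the spleen none of 13 tested targets rose and 6 fell (median -0.57), including the cholesterol exporter Abca1 (-1.33, adjusted p = 0.000146), Cd5l (-1.24, adjusted p = 0.00247) and Mertk (-1.90, adjusted p = 0.000148). Apoe (-1.06, adjusted p = 0.00878) and Arl4c (-0.71, adjusted p = 0.00436) fell there too, and so in all 4 genotype comparisons, 3 of which had a rise of Nr1h3. As interactions with organ, 6 targets rose and none fell in Ly6C-low macrophages (26.8% of all genes passed). In Ly6C-high macrophages 5 rose and 1 fell (33.5% of all genes).

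**Figure D3:**
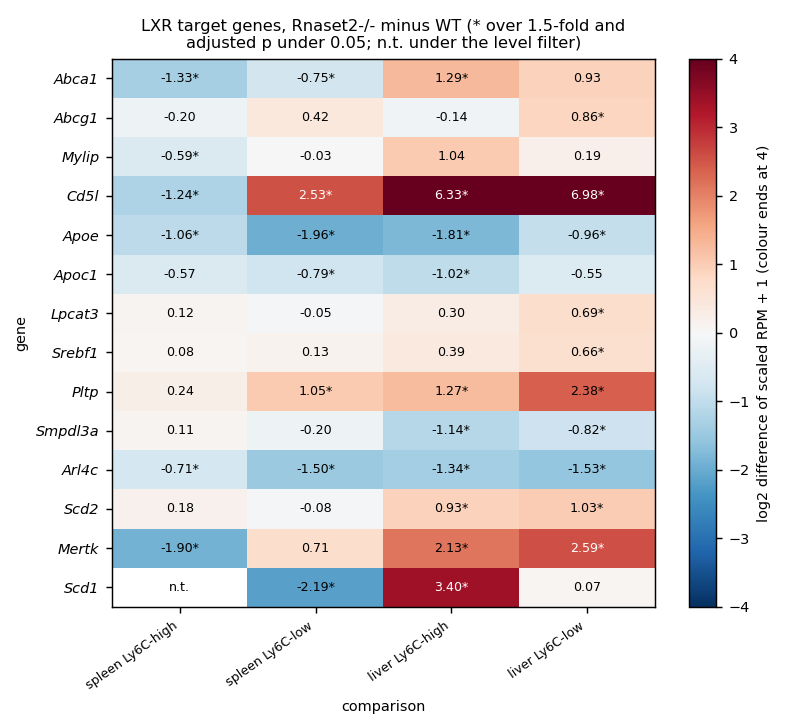
Fitted log2 differences of scaled RPM + 1, Rnaset2-/- minus WT, of the 14 LXR target genes (rows) in 4 comparisons (columns), coloured from blue (lower) to red (higher), with an asterisk where both thresholds were passed and n.t. where the gene was under the level filter. The liver columns hold the largest rises, led by Cd5l at 6.98 and 6.33, while most values of the Ly6C-high spleen column are below 0.

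Other members of the same factor families were counted from a list of 20. The shares of all genes that passed were 42.7% and 30.6% in Ly6C-low and Ly6C-high macrophages of the liver. They were 8.35% and 22.2% in those of the spleen, and the counts were not tested against them. In Ly6C-low macrophages of the liver 7 of 16 tested fell and 1 rose (median -0.37), with Ddit3, the stress-induced C/EBP relative CHOP (-3.71, adjusted p = 4.38e-05), the small Maf gene Maff (-2.87, adjusted p = 0.00128) and Cebpd (-2.59, adjusted p = 0.000157) down, and Tcf4, an E protein, up (0.98, adjusted p = 0.00829). In Ly6C-high macrophages of the liver 8 of 16 fell and 3 rose, with Ddit3 at -3.42 (adjusted p = 0.00016) and Maff at -3.33 (adjusted p = 0.00469) among the falls. In the spleen 7 of 17 fell and 1 rose in Ly6C-high macrophages, and 2 fell and 1 rose in Ly6C-low macrophages.

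Of other myeloid transcription factors, 14 of 33 tested fell and 5 rose in Ly6C-low macrophages of the liver (42.7% of all genes passed). The falls were led by Runx3 (-4.27, adjusted p = 6.71e-05), Klf4, a factor of monocyte differentiation (-4.18, adjusted p = 1.26e-05), and Bhlhe40 (-3.71, adjusted p = 3.11e-05), and the rises by Batf3, Pou2f2 and Ppard (2.25, 1.21 and 1.13, adjusted p = 0.000203, 0.00649 and 0.00492). In Ly6C-high macrophages of the liver 7 of 35 fell and 5 rose (30.6% of all genes), and in those of the spleen 10 fell and 3 rose (22.2%). In Ly6C-low macrophages of the spleen (8.35% of all genes) 2 fell (Runx3 at -1.50, adjusted p = 0.000707, and Smad3 at -0.79, adjusted p = 0.0144) and 1 rose (Mitf, 1.13, adjusted p = 0.0195).

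Known targets of the other factors were counted from a list of 21, beside shares of all genes of 42.7% (Ly6C-low) and 30.6% (Ly6C-high) in the liver. The shares in the spleen were 8.35% and 22.2%, and the counts were not tested against them. In Ly6C-low macrophages of the liver 10 of 20 tested rose, including Slc40a1, the iron exporter ferroportin and a target of SpiC (3.63, adjusted p = 0.000945), C1qb, a complement subunit gene regulated by c-MAF (2.75, adjusted p = 0.000133), and Timd4 (3.80, adjusted p = 0.00186). Slc40a1 and Timd4 were spread widely in Rnaset2-/- mice, at 333 ± 299 and 30.0 ± 32.0 RPM (SD, n = 3), against 19.7 ± 3.22 and 0.57 ± 0.326 in WT. In the same comparison 4 fell, including the monocyte chemokine receptors Ccr2 (-3.58, adjusted p = 0.00196) and Cx3cr1 (-2.15, adjusted p = 0.000804) and the integrin Itgam (-0.96, adjusted p = 0.00466). In Ly6C-low macrophages of the spleen 5 of 17 rose and none fell, led by Il10, a cytokine gene regulated by c-MAF (3.96, adjusted p = 0.0011), C1qb (1.94, adjusted p = 0.0481) and Adgre1 (1.18, adjusted p = 0.00803). In Ly6C-high macrophages 4 of 18 rose and 1 fell in the liver, and 1 of 14 rose and 2 fell in the spleen.

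Between subsets, 8 of the 9 genes differed in WT spleens (33.6% of all genes). Nr1h3 (log2 difference Ly6C-low minus Ly6C-high 1.77, adjusted p = 2.02e-06), Cebpb (1.52, adjusted p = 0.000184), Spic (0.99, adjusted p = 0.00378) and Spi1 (0.84, adjusted p = 8.18e-06) were higher in Ly6C-low macrophages, and Cebpa (-1.18, adjusted p = 2.16e-06), Maf (-1.17, adjusted p = 4.54e-06), Rxra (-0.79, adjusted p = 0.000238) and Id3 (-0.75, adjusted p = 0.000637) were lower. In WT livers only Zeb2 differed (10.1% of all genes), lower in Ly6C-low macrophages by 0.83 (adjusted p = 0.00946). In Rnaset2-/- spleens 4 genes passed (28.1% of all genes), with Spic at 3.30 (adjusted p = 0.000394), Nr1h3 at 2.36 (adjusted p = 0.000458), Cebpb at 1.49 (adjusted p = 0.00774) and Cebpa at -0.75 (adjusted p = 0.0114), and the same 4 passed without the 2 libraries richest in neutrophil genes. The summed RPM of neutrophil genes was 31299 to 59624 in Ly6C-high libraries of the spleen, at most 2576 in WT Ly6C-low ones and at most 2646 in any library of the liver, so it moved with subset and organ, and its part was not tested.

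In Rnaset2-/- livers 5 genes passed between subsets (17.0% of all genes). Nr1h3 was higher in Ly6C-low macrophages by 3.30 (adjusted p = 0.00485), Spic by 2.59 (adjusted p = 0.012), Rxra by 2.22 (adjusted p = 0.00317) and Maf by 1.09 (adjusted p = 0.0243), and Cebpb was lower (-1.50, adjusted p = 0.00647). Libraries with the same replicate number deviated together in this comparison, and with the replicate as a block the count was 6, since Id3 then passed (1.44, adjusted p = 0.00212, against 0.0668 without the block). Maf no longer passed with any of 4 single libraries left out (adjusted p up to 0.0984), and without Ly6C-high replicate 3 only 3 genes passed, Spic being at 0.0509. In this comparison 5 of 9 Kupffer cell genes were higher in Ly6C-low macrophages, and 9 of 11 tested neutrophil, 6 of 8 NK cell, 5 of 9 B cell and 12 of 16 dissociation and immediate early genes were lower; their part was not tested. The difference of Nr1h3 between subsets, small in WT livers (-0.25, 95% confidence interval -0.62 to 0.12), thus came with levels of 93.8 and 796 RPM in Rnaset2-/- livers.

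Between organs, Id3 and Maf were higher in the liver in all 4 comparisons of the same subset and genotype. The log2 differences of Id3, liver minus spleen, were 3.45 (WT Ly6C-high, adjusted p = 3.5e-07), 3.69 (WT Ly6C-low, adjusted p = 3.99e-06), 1.67 (Rnaset2-/- Ly6C-high, adjusted p = 0.00941) and 3.09 (Rnaset2-/- Ly6C-low, adjusted p = 0.000528). Those of Maf were, in the same order, 1.11, 2.34, 2.94 and 3.51, with adjusted p of 7.17e-05, 1.87e-06, 0.000113 and 0.000172. In Rnaset2-/- mice sex, by Xist, moved with organ in all but 1 spleen library, so organ and sex were not separated there. Sinusoidal endothelial genes were higher in the liver in the same comparisons, 8, 8, 9 and 9 of 10. Dissociation and immediate early genes were higher there in WT (11 of 16 in Ly6C-high and 12 of 16 in Ly6C-low macrophages) and mostly lower in Rnaset2-/- mice (8 lower and 2 higher in Ly6C-high, 12 lower and 1 higher in Ly6C-low macrophages). In Rnaset2-/- Ly6C-high macrophages 9 of 9 T cell, 8 of 9 B cell and 5 of 5 erythroid genes were higher in the liver too, and the part of all these lists was not tested. In WT Ly6C-high macrophages 6 genes passed (37.8% of all genes), all higher in the liver and including Nr1h3 (2.31), Spic (1.56), Zeb2 (1.23) and Spi1 (0.81), with adjusted p of 2.88e-06, 0.000227, 6.82e-05 and 0.00131. On RPM as deposited, where the median of all genes was -0.299 in place of -0.042, Spi1 stayed under 1.5-fold (0.536). In WT Ly6C-low macrophages 5 passed (34.1% of all genes), with Cebpa (0.85, adjusted p = 0.00518) and Zeb2 (0.63, adjusted p = 0.00149) higher and Cebpb lower (-0.79, adjusted p = 0.00268).

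In Rnaset2-/- Ly6C-high macrophages 6 genes passed between organs (28.1% of all genes), where Nr1h3 (2.22, adjusted p = 0.00448) and Spic (1.52, adjusted p = 0.00734) were higher in the liver. Cebpb (0.60, adjusted p = 0.0437) and Cebpa (-0.72, adjusted p = 0.012) passed too, but Cebpb did not in 8 of 14 other settings and Cebpa not with any of 4 single libraries left out. In Rnaset2-/- Ly6C-low macrophages 5 passed (36.1% of all genes). Nr1h3 (3.10, adjusted p = 0.000134) and Rxra (2.42, adjusted p = 9.95e-05) were higher in the liver, and Cebpb was lower by 5.75-fold in mean RPM (-2.44, adjusted p = 0.000793). Spic, high in both, differed by 0.75 with a 95% confidence interval from -0.23 to 1.74. Sex moved with organ in both comparisons of Rnaset2-/- mice, except in a single spleen library, so these differences carry it too.

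**Figure D4:**
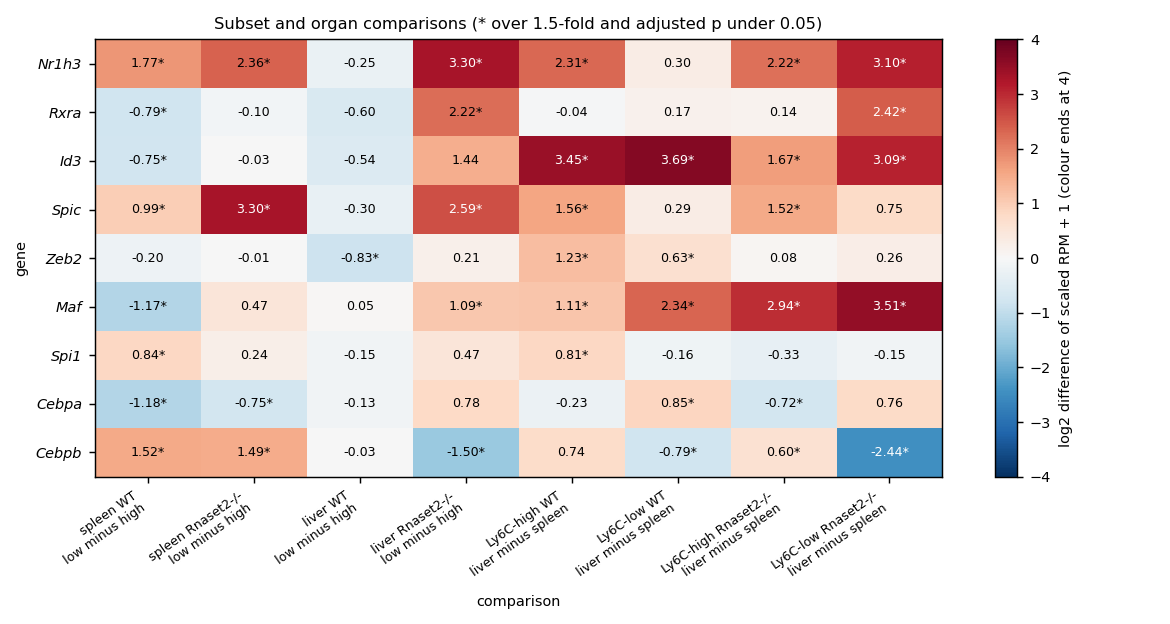
Fitted log2 differences of scaled RPM + 1 for the 9 genes (rows) between subsets (Ly6C-low minus Ly6C-high) and between organs (liver minus spleen), coloured from blue (lower) to red (higher), with an asterisk where both thresholds were passed. Id3 and Maf are positive in all 4 organ columns, and in the WT liver subset column only Zeb2 has an asterisk.

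The study also set Kupffer cells beside the recruited subsets of the liver. Against WT Ly6C-high macrophages 8 of the 9 genes differed (54.6% of all genes), and 8 did against WT Ly6C-low macrophages (50.0% of all genes). Higher in Kupffer cells, against the Ly6C-high and Ly6C-low subsets respectively, were Maf (log2 difference 2.03 and 1.97, adjusted p = 2.73e-06 and 1.01e-05), Nr1h3 (1.64 and 1.88, adjusted p = 5.25e-05 in both), Rxra (1.45 and 2.03, adjusted p = 0.000163 and 3.76e-05) and Spic (0.69 and 0.98, adjusted p = 0.0147 and 0.00286). Lower were Cebpb (-3.14 and -3.13, adjusted p = 1.18e-05 and 2.07e-05) and Spi1 (-2.08 and -1.95, adjusted p = 6.75e-06 and 2.39e-05). These comparisons share their Kupffer cell libraries. Without Kupffer cell replicate 3, 8 genes passed against Ly6C-high and 7 against Ly6C-low macrophages (Cebpa then had an adjusted p of 0.0834). The call of Cebpa against Ly6C-low macrophages (adjusted p = 0.0484) was lost in 10 of 15 other settings, with adjusted p up to 0.642, and that of Zeb2 in 4 of 15. Sinusoidal endothelial genes summed to 4300 to 9360 RPM in Kupffer cells, highest in replicate 3, against 177 to 604 in the WT subsets, and dissociation and immediate early genes to 2228 to 3547 against 27706 to 40122; the part of both lists was not tested. They also depend on the scaling, which moved the median difference of all genes from 0.671 to 0.05 against Ly6C-high and from 0.546 to 0.019 against Ly6C-low macrophages. On RPM as deposited Zeb2 (-1.40 scaled against Ly6C-high and -0.59 against Ly6C-low) was at -0.002 against Ly6C-low macrophages, and Cebpa (-0.86 and -0.74 scaled) was at -0.177 and -0.156 with adjusted p of 0.549 and 0.642.

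Rnaset2-/- Ly6C-low macrophages of the liver were then compared with Kupffer cells. The groups also differed in genotype and, by the sex-linked genes, in sex, which cannot be told apart from cell type here. In this comparison 4 of the 9 genes passed (45.6% of all genes), all higher in the Rnaset2-/- macrophages, namely Nr1h3 (log2 difference 2.21, SE 0.26, adjusted p = 0.000249), Spic (1.93, SE 0.34, adjusted p = 0.00168), Spi1 (1.87, SE 0.26, adjusted p = 0.000531) and Cebpb (1.15, SE 0.34, adjusted p = 0.0203). Rxra (0.39, 95% confidence interval -0.13 to 0.91) and Maf (-0.12, -0.66 to 0.42) did not pass. On RPM as deposited, where the median gene was at -0.557 in place of -0.075, Cebpb did not pass (0.621, adjusted p = 0.145), and Id3 (-1.07) and Maf (-0.654) passed as lower. Clec4f (-6.05, adjusted p = 6.11e-05) and Timd4 (-3.45, adjusted p = 0.00168) were lower than in Kupffer cells, while the LXR targets divided evenly, with 4 higher, led by Pltp (1.58, adjusted p = 0.00578), and 4 lower, led by Apoc1 (-4.62, adjusted p = 2.68e-06). All 8 hepatocyte genes were lower than in Kupffer cells (median -4.79; summed RPM 12.8 to 79.1 against 1489 to 5157), as were 9 of 10 sinusoidal endothelial and 7 of 9 B cell genes, and the part of these lists was not tested.

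For Rnaset2-/- Ly6C-high macrophages of the liver 6 genes passed against Kupffer cells (32.1% of all genes). Genotype and sex differed between these groups as well. Cebpb (2.68, adjusted p = 0.000779) and Spi1 (1.44, adjusted p = 0.00195) were higher, and Id3 (-1.96, adjusted p = 0.00156), Rxra (-1.80, adjusted p = 0.000513), Maf (-1.18, adjusted p = 0.00251) and Cebpa (-1.05, adjusted p = 0.0253) were lower. Cebpa did not pass in 5 other settings, and Nr1h3 (-1.05, adjusted p = 0.0523) passed in 7 of 15. Of the LXR targets 7 were lower and 1 higher, with Apoc1 at -5.95 (adjusted p = 1.32e-06), Cd5l at -4.38 (adjusted p = 0.000647) and Apoe at -2.80 (adjusted p = 0.000199). All 8 hepatocyte genes were lower here as well (median -4.75; summed RPM 21.7 to 66.7), and their part was not tested.

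**Figure D5:**
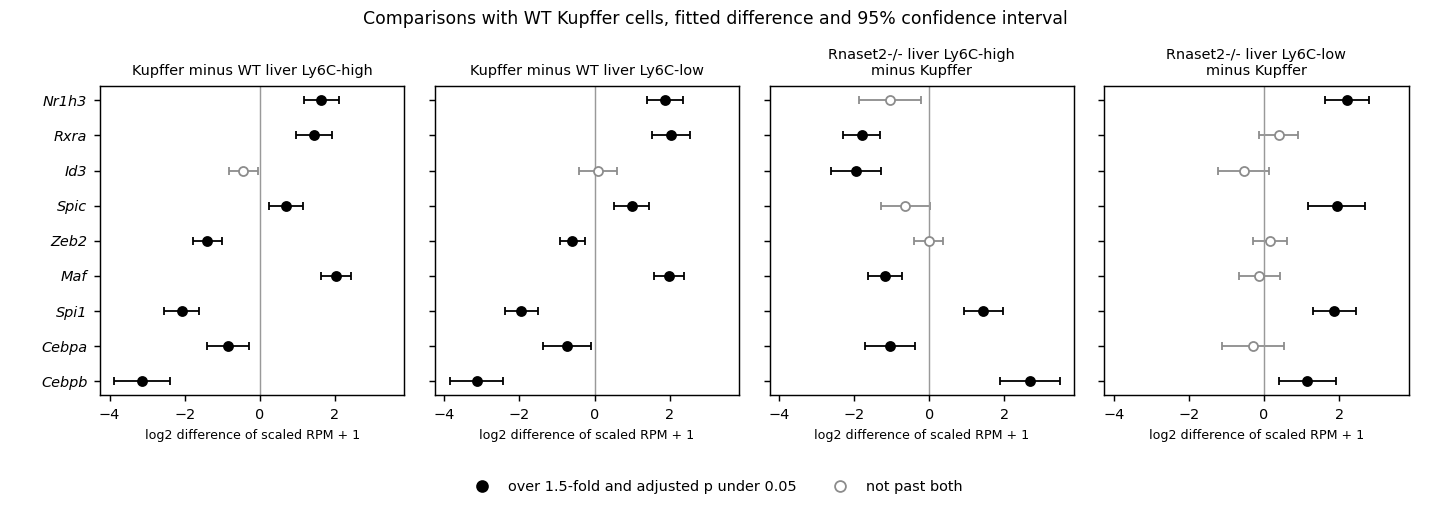
Fitted log2 differences of scaled RPM + 1 for the 9 genes in 4 comparisons with WT Kupffer cells, as points with 95% confidence intervals, filled where a gene passed both thresholds. Kupffer cells are subtracted from the Rnaset2-/- groups in the last 2 panels, where Nr1h3 lies at -1.05 for Ly6C-high and at 2.21 for Ly6C-low macrophages.

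Across the 29 libraries, many of which share an organ, subset or genotype, the genes closest to each factor by Pearson's r of log2(scaled RPM + 1) were sought among 9510 genes, as a description. Nr1h3 was most like Acp5 (0.959), the gene of tartrate-resistant acid phosphatase, Pigz (0.953) and Acp2 (0.951), a lysosomal acid phosphatase. Acp5 was also among the 3 closest to Spic (0.899), after Scarf2 (0.913) and before Tmc3 (0.887), and the r between Nr1h3 and Spic was 0.88. Rxra was closest to Hs1bp3 (0.927), Aco1 (0.914) and Qdpr (0.909), and Maf to Cttnbp2nl (0.965), Nectin2 (0.962) and Cdh5 (0.950), the gene of VE-cadherin and a marker of endothelium that Kupffer cells also express. Id3 was closest to Zfp655 (0.934), Hic1 (0.933) and Hbegf (0.913), and Zeb2 to Insig1 (0.869), Arf4 (0.851) and Vapa (0.846). Spi1 was closest to Lmo4 (0.929), Sirpb1b (0.920) and Capzb (0.919), Cebpa to Id1 (0.85), Zfp385a (0.789) and Clec7a (0.789), and Cebpb to Plagl2 (0.938), Ddx28 (0.937) and Tfeb (0.921), a regulator of lysosome genes. Among the members, Rxra and Cebpb had the lowest r (-0.83), and the r of Nr1h3 and Zeb2 was 0.0.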

How the data were processed

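The authors prepared libraries from 1 ng of RNA as Ion AmpliSeq Transcriptome libraries (mouse panel of gene amplicons), sequenced them on the Ion Proton and counted reads with the AmpliSeqRNA plug-in; the submitters' processing notes name the build mm10. They deposited 1 table of RPM for 29 libraries, and each value was a whole number of reads within 0.1 reads, so reads were recovered (11175843 to 21167602 per library). The floor of 3 reads covers counting error only, and confidence intervals are those of limma and measure the spread between libraries. For each of 16 comparisons of 2 groups, and of 4 groups for 2 interactions, RPM were scaled by relative log expression factors, genes that reached 1 RPM in 3 or more of the compared libraries were kept, and limma 3.58.1 (R 4.3.3; lmFit, eBayes with trend, two-sided, Benjamini-Hochberg over all tested genes) was run on log2(value + 1), where fold changes of low genes are understated. Levels are RPM as deposited. Genes counted as changed were over 1.5-fold with an adjusted p under 0.05.

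Alternatives were an added value of 0.1, no filter, RPM unscaled, a single fit of 29 libraries, the replicate number as a block, edgeR 4.0.16 and DESeq2 1.42.0 on recovered reads, an adjusted p under 0.1 alone, and each library left out. Replicate numbers paired libraries by their deviations only in the comparison of subsets in Rnaset2-/- livers (r 0.232 to 0.527 in 3 pairs); the labels do not say what a number marks. On data simulated for Ly6C-low macrophages of the liver, limma recovered 152 of 200 changed genes and called 10 of 11651 unchanged ones. The simulation gave all genes of both groups the same spread beyond counting error. In the real libraries the SD of Spic was 56.0% of its mean in Rnaset2-/- and 5.30% in WT mice. The simulated counts therefore do not give error rates for these data. Named genes are the members, up to 3 genes per list with the largest called rise and fall in genotype or Kupffer cell comparisons, the 3 genes closest to each member, and defining markers; 1 result under this rule is not reported here. Members and lists were chosen with earlier results of these data known.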

Additional observations from a re-analysis of the deposited data

Results flagged for a closer look

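The RPM of Maf in replicate 1 of the Rnaset2-/- Ly6C-low macrophages of the spleen was 82.1, against 30.4 to 38.7 in the other 3 libraries. Its gap to the nearest of them was 0.839 of the whole range of the group, above Dixon's critical value for 4 libraries; 1 of 18 groups of values tested was so marked, and chance marks about 1 in 20. The same library had the highest summed RPM of neutrophil genes, 41391.

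The difference between Rnaset2-/- and WT differed between liver and spleen, by the interaction term in limma, for 8 of the 18 values tested. Of all genes, 33.5% passed in Ly6C-high and 26.8% in Ly6C-low macrophages, and sex moved with genotype in the liver. In Ly6C-high macrophages the interactions were -1.83 for Id3 (adjusted p = 0.00379), -1.20 for Zeb2 (adjusted p = 0.00219), 1.79 for Maf (adjusted p = 0.000109) and -1.20 for Spi1 (adjusted p = 0.00238). In Ly6C-low macrophages they were 2.77 for Nr1h3 (adjusted p = 7.61e-05), 2.22 for Rxra (adjusted p = 0.000221), 1.14 for Maf (adjusted p = 0.0361) and -1.68 for Cebpb (adjusted p = 0.0063). The call of Maf in Ly6C-low macrophages was lost in 13 of 22 other settings.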

How the results depend on the processing

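The count of the 9 genes that passed stayed within 1.5 times its value in 271 of 276 settings, and no gene that passed changed direction. In Ly6C-high macrophages of the spleen the genotype count was 5 on RPM as deposited (Rxra and Id3 added) and 6 at an adjusted p under 0.1 without a fold threshold, in place of 3. With each library left out in turn, it ranged from 1 to 3 for genotype in Ly6C-low macrophages of the spleen, lowest without WT replicate 2, and from 3 to 7 for subsets in Rnaset2-/- livers, lowest without Ly6C-high replicate 3 and highest without Ly6C-low replicate 1. With the replicate number as a block, the count for subsets in Rnaset2-/- spleens fell from 4 to 2 (Cebpb, adjusted p = 0.06, and Cebpa, 0.0639, did not pass), although the numbers did not pair these libraries (r -0.25 to 0.091), and in the other comparisons the blocked count differed by at most 1. Single genes lost a call in 72 of 2484 settings and gained one in 48; the causes were not tested. Leaving out the 2 libraries richest in neutrophil genes was chosen after seeing the data and left 4 counts as they were. Of 18 checks of the closest genes by another measure, 13 kept at most 1 of the 3 named genes, and no check kept all 3. Scaling RPM over all 29 libraries moved 20 group means of the 9 genes by at least the SD of the group, and 61 by less. The highest group then became Rnaset2-/- liver Ly6C-low macrophages for Rxra (849 against 705 in Kupffer cells). It became WT liver Ly6C-high macrophages for Id3 (765 against 613 in Kupffer cells) and Spi1 (1599.5 against 1541.7 in WT spleen Ly6C-low macrophages). With 3 or 4 libraries a group, small differences cannot be resolved.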
